A study of Mus musculus with 26 samples.

Results

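The comparison described here set basal against luminal mammary epithelial cells of wild-type mice at 12 months of age, across all genes. It rests on 4 of the 26 RNA-seq libraries of the series: 2 basal and 2 luminal, chosen by their labels. All 4 came from mouse mammary gland of strain B6.129S1. Glands were kept minced in freezing medium before they were dissociated. Cells of 3 mice were pooled, then sorted by flow cytometry on EpCAM and CD49f into basal, luminal and stromal fractions. Pool A1 and pool A2 each gave 1 basal and 1 luminal library, so every fraction had 2 libraries, and the fractions of a pool shared their mice. The series also holds 3-month wild-type mice and Slug/Snai2-null mice. Wild-type stromal and 3-month libraries serve below for the choice of genes tested, the scaling and the spread, and as named reference values. Basal and luminal libraries of 3 months are also compared with each other, and that difference with the one at 12 months. Labels and protocols name no transgene, Cre or treatment in these groups. A library stands for a mixture of 3 mice, so differences between single animals cannot be seen, and its level of a gene cannot separate fewer cells of a type from less RNA per cell.

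The mammary epithelium is a bilayer. Luminal cells line the lumen, carry simple keratins and tight junctions, and include hormone-sensing cells with oestrogen and progesterone receptors and secretory-type cells that can make milk proteins. Basal cells, mostly contractile myoepithelium, lie outside them on the basement membrane, carry stratified-type keratins and smooth-muscle proteins, and squeeze milk out under oxytocin. EpCAM is a surface adhesion protein that is higher on luminal cells, and CD49f is integrin α6, which is higher on basal cells.

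Libraries held 3203664 and 8475262 gene counts in basal A1 and A2, and 6285597 and 6751898 in luminal A1 and A2, with 17907 to 19282 genes detected. In the fitted scale, 1 count was worth 0.300, 0.129, 0.191 and 0.182 CPM (counts scaled to a library of 1000000) in the same order, so low values were least precise in basal A1. RNA of the mitochondrial ribosome took 23.7% and 38.4% of counts in the basal libraries and 34.6% and 48.0% in the luminal ones. Libraries of a fraction correlated across genes at 0.936 (basal) and 0.937 (luminal) in log2 CPM, and the 2 fractions of a pool at 0.857 in each pool. Replicates differed far beyond counting noise, with a chi-square per degree of freedom of 38.4 and 57.2, and none was a repeat of another.

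The sorted fractions carried the markers of their labels. Values are CPM for pool A1 and then pool A2 throughout, and log2 fold changes are basal over luminal with their standard error, from a model fitted to 14990 genes by edgeR's quasi-likelihood test. A gene is said to have risen, fallen or been called when its adjusted p was under 0.05. Krt14, a keratin of basal epithelium (chr11:100203162-100207548, GRCm38), stood at 302 and 391 CPM in basal and 5.91 and 9.09 in luminal libraries. Krt18, a keratin of simple epithelium (chr15:102028180-102032027), stood at 185 and 152 in basal and 722 and 605 in luminal libraries. Fmod, which encodes the collagen-binding proteoglycan fibromodulin (chr1:134037254-134048277), was at 88.2 and 54.2 against 0.572 and 0.182. Erbb3, a receptor for neuregulins (chr10:128567523-128589652), was at 18.0 and 29.2 against 97.4 and 137. The groups did not overlap for any of these 4 markers. Lack of overlap is common with 2 libraries against 2 (28.4% of all genes tested with basal higher, 24.8% with basal lower) and is no result by itself. Krt18 fell by 1.98 ± 0.33 on the log2 scale (adjusted p 0.00066), Erbb3 changed by -2.29 ± 0.45 (adjusted p 0.00441, and 0.056 without the basal A1 library) and Fmod by 7.50 ± 0.79 (adjusted p 5.11e-05). Krt14 had a log2 fold change of 5.53 ± 1.48 with an adjusted p of 0.0539, which missed the threshold. The adjusted p was 0.0488 with the pool as a block, 0.124 with all 26 libraries and 0.00013 by DESeq2. Krt14 was also called by edgeR with only the 4 libraries, and with only the 8 basal and luminal libraries of both ages. Stromal libraries, which share the spread, held it at 2.25 and 88.5 CPM at 12 months. The part of that gap in the missed call was not tested. The basal libraries held Krt18 at CPM values well above 0, as the marker plot shows. Of the antigens of the sort, Epcam had 412 and 434 CPM in basal and 1091 and 871 in luminal libraries, and Itga6 661 and 564 and 273 and 217. Both were used to separate the cells, so their difference is not a finding.

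**Figure D1:**
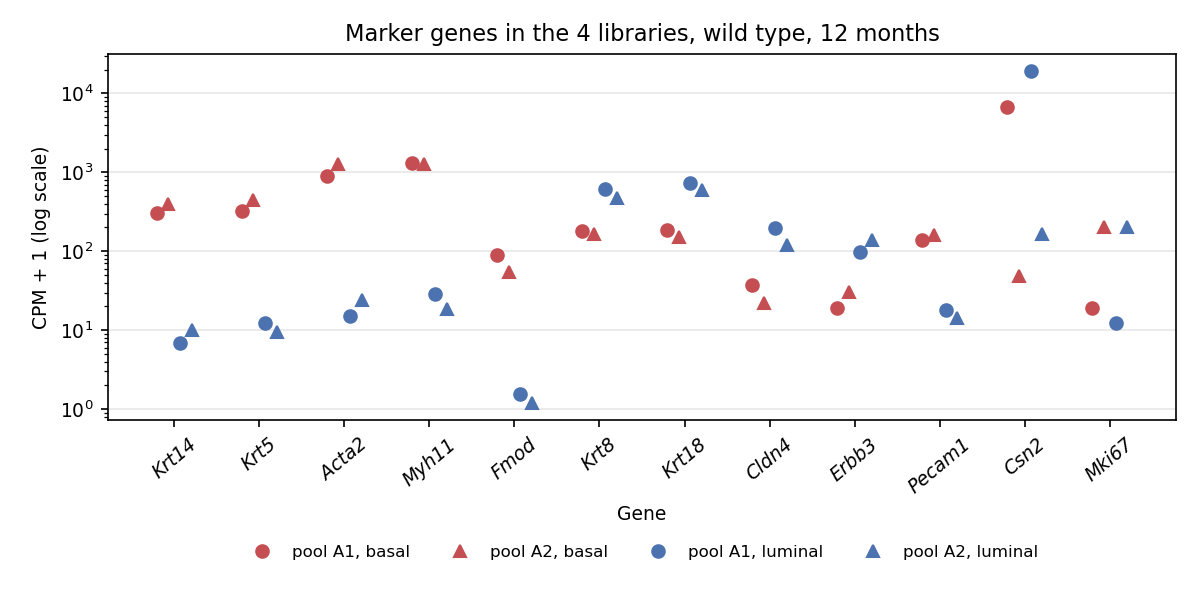
CPM + 1 on a log axis for 12 marker genes in the 4 libraries, with circles for pool A1, triangles for pool A2, red for basal and blue for luminal. Basal keratin and contractile genes, Fmod and the endothelial gene Pecam1 are higher in both basal libraries, and Krt8, Krt18, Cldn4 and Erbb3 in both luminal ones, while Csn2 and Mki67 separate the pools rather than the fractions.

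More genes were called higher than lower in the basal fraction. Of 14990 genes tested, 2329 were called (15.5%): 1737 rose in basal cells (11.6%) and 592 fell (3.95%). The rises were also larger, with a median log2 fold change of 2.52 among genes called higher and -1.63 among genes called lower, against 0 over all genes tested. Protein-coding genes made up 1654 of the rises and 556 of the falls. The split varied by fit: 437 rises and 23 falls with all 26 libraries, and 2087 and 1282 with only the 4 libraries and the pool as a block. The rises include 20 of 21 listed endothelial and 11 of 14 tested fibroblast genes. The part of other cell types in the excess of rises was not tested. Basal and luminal values did not overlap for 4251 genes that were higher in basal cells (28.4% of all tested) and 3712 that were lower (24.8%), so separation of 2 libraries against 2 is common and is no result by itself.

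The pools largely shared the difference. Basal minus luminal log2 CPM (prior count 2) had the same sign in both pools for 10561 genes (70.5%) and for 2328 of the 2329 called genes. Genes called higher had a median pool difference of 2.21 in A1 and 2.35 in A2, and genes called lower -1.61 and -1.52. The calls were made from these same libraries, so agreement of the pools among called genes follows largely from the choice and is no result. Across genes, which are not independent replicates, the differences of the 2 pools correlated at 0.696 (Pearson) and 0.595 (Spearman). The main fit holds no term for the pool, so its test leaves out that basal and luminal libraries of a pool shared their mice. With the pool as a block, 2618 genes were called, 2259 of them shared with the fit without the block. The count of calls depended on which libraries set the spread: it was 460 when all 26 libraries of the series were fitted together, and 1517 to 1685 when any 1 of the 4 libraries compared was left out. Without basal A1, luminal A1, basal A2 and luminal A2, rises numbered 1272, 1350, 1331 and 1062 and falls 265, 335, 269 and 455. Calls held with each of the 4 libraries left out in turn for 958 genes, 847 higher and 111 lower.

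**Figure D2:**
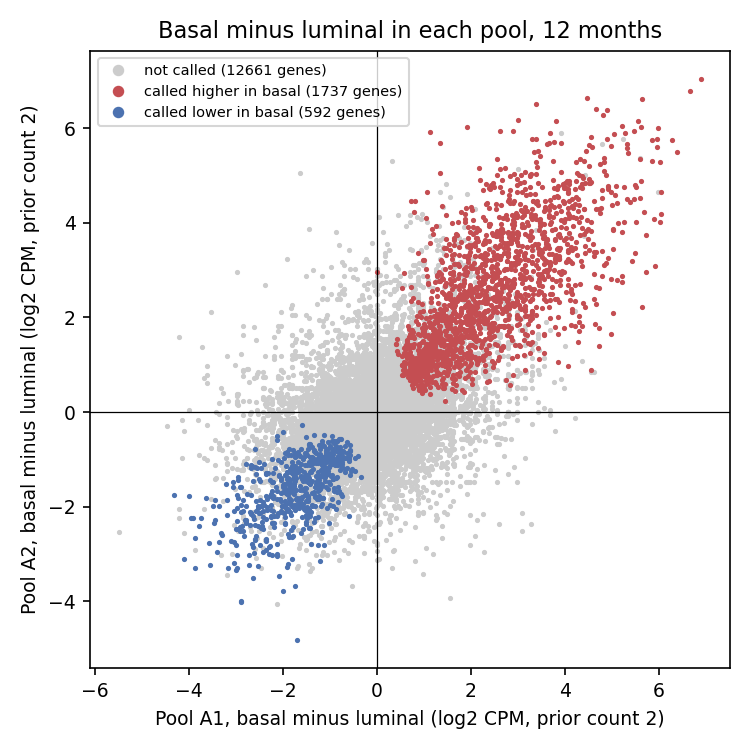
Basal minus luminal difference in log2 CPM for every gene tested, pool A1 on the x axis and pool A2 on the y axis, coloured by call. The 1737 genes called higher lie in the upper right, 1 of the 2329 called genes apart, and the 592 called lower in the lower left, and gray genes scatter around 0. The calls were made from these same libraries, so the place of called genes follows largely from the choice.

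The rises of largest size were led by genes with almost no count in luminal cells. Zfp365, a zinc finger gene, had 18.9 and 19.4 CPM in basal libraries and no count in either luminal one, which makes it at least 69.0-fold higher against a floor of 3 counts over the luminal group (adjusted p 7.59e-06). Irx4, an Iroquois homeobox factor, was at least 62.5-fold higher on the same floor, from 11.1 and 20.2 CPM (adjusted p 0.0129, and 0.0787 without the luminal A2 library). Frmpd4, a scaffold protein of synapses, was at least 51.2-fold higher, from 12.0 and 15.3 CPM (adjusted p 0.000639). Sv2b, a synaptic vesicle glycoprotein, was at least 49.2-fold higher, although its basal libraries differed from each other at 3.60 and 18.1 CPM (adjusted p 0.0247, and 0.129 without the luminal A2 library). Lack of overlap was a condition of the choice and is no result for these genes.

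A further group had 1 or 2 luminal counts. Brinp3 stood at 58.5 and 40.4 CPM in basal cells, a count ratio of 492 (exact 95% interval 88.0 to 19500.0). Kcnmb1, the β1 subunit of the calcium-activated potassium channel of smooth muscle, stood at 25.2 and 30.3 CPM, a ratio of 154 (exact 95% interval 42.4 to 1280.0). Ephb1, an ephrin receptor, stood at 14.7 and 14.1 CPM, a ratio of 153 (exact 95% interval 27.1 to 6100.0). Pknox2, Sorcs1 and Il17b had ratios of 181, 170.0 and 145, with intervals that reached from 25.6 for Il17b to 7170.0 for Pknox2. These intervals cover counting error only. Of the 12 largest rises, those with enough luminal counts for a fitted value were Fmod, above, and Hgf, the ligand of the receptor Met, with 62.4 and 47.6 CPM in basal and 0.953 and 0.182 in luminal libraries and a log2 fold change of 6.56 ± 0.66 (adjusted p 2.17e-05).

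Among called genes with a mean of 10 CPM or more in the higher group and no overlap, the largest falls were smaller than the rises. Dkkl1, a secreted relative of the Dickkopf proteins, had 2.10 and 1.16 CPM in basal and 17.5 and 23.1 in luminal libraries (log2 fold change -3.72 ± 0.63, adjusted p 0.00065). Cldn6, a tight-junction claudin, changed by -3.45 ± 0.83 (adjusted p 0.0103, and 0.0767 without the basal A2 library). Abcc8, the sulfonylurea receptor subunit of potassium channels, had 4.20 and 3.88 against 35.3 and 40.9 CPM and changed by -3.24 ± 0.57 (adjusted p 0.00127). The 12 falls had log2 fold changes from -3.72 to -2.99. Msx2, a homeobox factor, changed by -3.21 ± 0.71 with uneven luminal values of 6.10 and 20.4 CPM (adjusted p 0.00553, and 0.0809 without the luminal A2 library). Sprr1a, a cornified-envelope precursor, had 10.5 and 26.9 against 114 and 211 CPM and changed by -3.07 ± 0.57 (adjusted p 0.00387). Vill, a villin-like actin-binding protein, had 1.80 and 2.72 against 23.1 and 15.1 CPM and changed by -3.01 ± 0.44 (adjusted p 0.000197). Tph1, the first enzyme of serotonin synthesis, changed by -2.99 ± 0.76 and was called by a narrow margin (adjusted p 0.025, and 0.169 without the basal A1 library). R3hdml, Capn8, Pls1, Ctsr and Naip6 complete the 12. Pls1 and Ctsr lost their calls with any 1 of the 4 libraries left out, up to adjusted p 0.244 without the basal A2 library and 0.228 without the basal A2 library. Naip6 has near-identical paralogs that could share its reads, so its value is uncertain.

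Keratins and junction proteins of simple epithelium fell together. Of 18 listed genes, 14 were called lower in basal cells, none higher, against 3.95% of all genes called lower, and the median log2 fold change was -1.91. Krt19, a simple-epithelium keratin, had 122 and 149.8 CPM in basal and 558 and 767 in luminal libraries (log2 fold change -2.29 ± 0.37, adjusted p 0.000644). Krt8, the partner of Krt18, had 179 and 165 against 619 and 475 CPM and changed by -1.67 ± 0.34 (adjusted p 0.00319). Basal values lay below luminal values for both keratins (as for 24.8% of all genes tested), with about the same gap in each pool. Cldn7, a claudin, had 4.20 and 6.34 against 37.0 and 28.2 CPM and changed by -2.58 ± 0.45 (adjusted p 0.000937). Cldn4, another claudin, had 36.6 and 21.2 against 198 and 119.6 CPM and changed by -2.48 ± 0.53 (adjusted p 0.00856, and 0.0922 without the basal A2 library). Muc1, an apical mucin, had 42.3 and 28.6 against 166 and 82.5 CPM and changed by -1.83 ± 0.33 (adjusted p 0.00136). All 18 fitted values were negative, including that of Cdh1 (E-cadherin, -1.02 ± 0.36, adjusted p 0.0731), which did not pass. Epcam, an antigen of the sort, is 1 of the 14 called. The number called was 10, 9, 6 and 11 without basal A1, luminal A1, basal A2 and luminal A2, and 2 in the fit of all 26 libraries.

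Promoters of these genes are shown because the list moved together and because many of them hold a motif. The motif is CAGGTG, which reads CACCTG from the opposite strand. It is an E-box that factors of the Snail and Zeb families are known to bind, and it was searched after the other choices had been made. Among the 250 bases upstream of RefSeq start sites (GRCm38.p6), 14 of the 18 genes matched with 19 promoters, of which 12 held CAGGTG (63.2%), against 17.2% of 32851 promoters. Holding it were Cldn4, Cldn7, Epcam, F11r, Krt7, Krt8, Krt18, Muc1, Ocln, Prom1 and Tjp3. F11r is among them although it hardly differed between fractions (-0.23 ± 0.48, adjusted p 0.822). A match says only that these letters are present. Capitals mark the motif in the Cldn4 promoter at chr5:134946935-134947184 (minus strand), the Muc1 promoter at chr3:89228806-89229055 (plus strand) and the Epcam promoter at chr17:87635729-87635978 (plus strand), each 5′ to 3′ toward the start site.
Cldn4: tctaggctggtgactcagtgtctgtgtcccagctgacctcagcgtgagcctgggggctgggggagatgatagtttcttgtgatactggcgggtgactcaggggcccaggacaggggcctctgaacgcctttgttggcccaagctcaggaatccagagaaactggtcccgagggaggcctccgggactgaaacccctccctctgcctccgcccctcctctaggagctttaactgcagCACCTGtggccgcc
Muc1: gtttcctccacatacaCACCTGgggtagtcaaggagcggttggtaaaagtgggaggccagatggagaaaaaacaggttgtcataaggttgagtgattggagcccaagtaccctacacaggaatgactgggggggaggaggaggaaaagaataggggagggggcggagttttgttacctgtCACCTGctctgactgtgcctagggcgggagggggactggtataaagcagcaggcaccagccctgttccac
Epcam: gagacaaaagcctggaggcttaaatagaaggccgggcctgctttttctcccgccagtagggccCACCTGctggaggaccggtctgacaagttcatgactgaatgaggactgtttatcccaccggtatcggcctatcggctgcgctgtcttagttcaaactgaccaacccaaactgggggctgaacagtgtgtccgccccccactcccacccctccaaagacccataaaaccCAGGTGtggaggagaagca
The motif lies 14 bases upstream of the start in Cldn4, and Muc1 and Epcam hold 2 copies each, the farthest 234 and 187 bases upstream.

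Transcription and splicing regulators of epithelium also fell, with 8 of 17 tested genes called lower (3.95% of all genes), none higher, and a median of -1.70. Esrp2, an epithelial splicing regulator, had 13.8 and 13.5 CPM in basal and 47.3 and 45.6 in luminal libraries and changed by -1.77 ± 0.31 (adjusted p 0.00082). Ehf, an ETS factor, had 58.5 and 40.9 against 204 and 162 CPM and changed by -1.89 ± 0.39 (adjusted p 0.00476, and 0.0606 without the basal A2 library). Esrp2 was nearly alike in the 2 pools, and Ehf was higher in pool A1 in both fractions. Elf3, another ETS factor, changed by -1.76 ± 0.35 (adjusted p 0.00269, and 0.0519 without the luminal A1 library), and Mal2, a protein of apical transport, by -2.44 ± 0.48 (adjusted p 0.00208). CAGGTG was in 5 of 17 promoters of this list (29.4%). The number of members called was 5, 5, 3 and 7 without basal A1, luminal A1, basal A2 and luminal A2, and 1 in the fit of all 26 libraries.

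Hormone-sensing genes were lower in basal cells, with 7 of 14 called lower (3.95% of all genes), none higher, and a median of -2.31. Cited1, a coactivator of the oestrogen receptor, had 20.1 and 20.6 CPM in basal and 154 and 112 in luminal libraries and changed by -2.71 ± 0.39 (adjusted p 0.000274). Esr1, the oestrogen receptor α, had 29.1 and 19.4 against 82.2 and 82.2 CPM and changed by -1.78 ± 0.32 (adjusted p 0.00133). Prlr, the prolactin receptor, had 280.0 and 449 against 1991 and 2779 CPM and changed by -2.71 ± 0.58 (adjusted p 0.0094, and 0.109 without the basal A1 library). Fractions did not overlap for these 3 genes, as held for 24.8% of all genes tested with basal lower. Ptn, a heparin-binding growth factor, changed by -1.56 ± 0.39 (adjusted p 0.0135, and 0.128 without the basal A1 library), and Foxa1, a pioneer factor of oestrogen receptor binding, by -2.46 ± 0.66 (adjusted p 0.0324, and 0.199 without the basal A1 library). Pgr and Areg, hormone targets chosen after their values were seen, were uneven between pools in both fractions. Pgr, the progesterone receptor, had 20.1 and 47.3 CPM in basal and 58.2 and 309 in luminal libraries, and Areg, amphiregulin, 11.4 and 46.9 and 75.3 and 255. Wnt4, a gene downstream of progesterone given below, was close between pools, so this does not hold for hormone targets as a class. Pool A2 was the higher pool for Pgr and Areg in each fraction, and neither passed the test (adjusted p 0.207 and 0.182). The count of falls was 2, 3, 4 and 4 with basal A1, luminal A1, basal A2 or luminal A2 left out, 11 lower and 1 higher with the pool as a block, and 0 in the fit of all 26 libraries.

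Secretory and progenitor genes of the luminal layer were lower in basal cells. Of 19 tested, 4 were called lower (3.95% of all genes) and none higher, with a median of -1.52 and all 19 values negative. Kit, a receptor tyrosine kinase of luminal progenitors, had 60.0 and 56.3 CPM in basal and 198 and 178 in luminal libraries and changed by -1.69 ± 0.28 (adjusted p 0.000543). Elf5, the ETS factor of alveolar cells, had 28.5 and 18.4 against 99.5 and 74.7 CPM and changed by -1.91 ± 0.38 (adjusted p 0.00297). Mfge8, a milk fat globule protein, changed by -1.12 ± 0.28 (adjusted p 0.0109, and 0.19 without the luminal A1 library), and Cd14, the lipopolysaccharide co-receptor, by -1.09 ± 0.34 (adjusted p 0.0418, and 0.293 without the luminal A1 library). Kit kept about the same level in both pools, and Elf5 was somewhat higher in pool A1. The milk protein gene Csn2, β-casein, had 6775 and 47.2 CPM in basal and 19432 and 163 in luminal libraries, so pool A1 was far above pool A2 in each fraction. Within each pool luminal Csn2 exceeded basal Csn2, and the fitted log2 fold change of -1.52 ± 2.56 was not called (adjusted p 0.779). Summed over the list, the level was 15480 and 1822 CPM in basal and 44910 and 4608 in luminal libraries. In the fit of all 26 libraries 0 members were called lower. Members called lower numbered 5, 2, 2 and 8 without basal A1, luminal A1, basal A2 and luminal A2, and 12 with the pool as a block.

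ErbB receptors and ligands were divided between the fractions: 5 of 16 tested genes rose (11.6% of all genes), 4 fell (3.95%), and the median was 0.14. Nrg1, the neuregulin that binds ErbB3 and ErbB4, had 21.6 and 19.0 CPM in basal and 0.191 and 0.545 in luminal libraries and rose by 5.70 ± 0.94 (adjusted p 0.00067). Its receptor Erbb3 was higher in luminal cells, as given above, and Erbb4 was too, at 27.8 and 24.5 against 15 and 5.69 in basal cells (-1.40 ± 0.45, adjusted p 0.0456, and 0.35 without the basal A2 library). Erbb2, the shared co-receptor, differed by -0.95 ± 0.28 (adjusted p 0.0327, and 0.254 without the luminal A2 library). Nrg1 thus stood on the opposite side of the comparison from Erbb3, Erbb4 and Erbb2, while another ligand gene, Btc, was higher in luminal cells. Egfr, the receptor of EGF and amphiregulin, rose, from 90.0 and 62.5 in luminal to 306 and 178 CPM in basal libraries (1.67 ± 0.30, adjusted p 0.00107). Errfi1, an intracellular inhibitor of ErbB receptors, rose by 1.28 ± 0.30 (adjusted p 0.00731, and 0.0961 without the luminal A2 library), and the ligand gene Btc, betacellulin, fell, by a log2 fold change of -4.23 ± 1.04 (adjusted p 0.0108, and 0.132 without the basal A2 library). Counts of rises were 2, 4, 5 and 3 and of falls 2, 3, 1 and 1 without basal A1, luminal A1, basal A2 and luminal A2. Erbb2, Erbb4, Btc and Foxa1 were singled out after their values were seen.

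Basal keratins and transcription factors had a median log2 fold change of 3.59, the highest of all lists, yet only 6 of 14 were called higher (11.6% of all genes). The number depended on the fit: 9 by DESeq2, 9 with only the 8 basal and luminal libraries and 3 with all 26 libraries. Snai2, which encodes the zinc finger repressor Slug and is the gene deleted in the other arm of the series, had 57.6 and 49.7 CPM in basal and 1.14 and 0.727 in luminal libraries (5.82 ± 0.46, adjusted p 7.7e-07). Egr2, an early growth response factor, had 324 and 357 against 51.9 and 51.1 CPM (2.73 ± 0.27, adjusted p 4.2e-06). Id4, an inhibitor of basic helix-loop-helix factors, had 23.7 and 36.5 against 0.381 and 2.0 CPM (4.63 ± 0.56, adjusted p 3.11e-05). None of these 3 genes overlapped between the fractions, as held for 28.4% of all genes tested with basal higher. Trp63, the p63 factor that maintains basal epithelium, had 199 and 186 against 12.2 and 6.18 CPM and 4.39 ± 1.17, and passed by the narrowest margin (adjusted p 0.0493, 0.0855 with the pool as a block, and 0.246 without the luminal A2 library). Krt5 and Krt17, keratins of basal cells, had 318 and 449.9 and 104 and 166 CPM in basal libraries against 11.2 and 8.54 and 2.48 and 2.73 in luminal ones. With fitted values of 5.28 ± 1.70 and 5.69 ± 1.69, neither passed (adjusted p 0.0965 and 0.0744), although DESeq2 gave 0.00243 and 0.0128. Both were called by edgeR with only the 4 libraries, and with only the 8 basal and luminal ones. Stromal libraries of 12 months held Krt5 at 1.05 and 113 CPM and Trp63 at 5.09 and 70.6 CPM. The part of these gaps in the shared spread was not tested. Sox9, a factor found in several mammary cell types, was level, at 424 and 320.2 CPM in basal and 452 and 294 in luminal libraries. Calls numbered 4, 3, 4 and 4 without basal A1, luminal A1, basal A2 and luminal A2.

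Contractile genes were higher in basal cells. Of 23 tested genes, 19 were called higher (11.6% of all genes) and none lower, with a median of 3.49 and all 23 values positive. Myh11, the smooth-muscle myosin heavy chain, had 1312 and 1283 CPM in basal and 27.6 and 17.8 in luminal libraries (5.83 ± 0.52, adjusted p 8.09e-06). Acta2, smooth-muscle actin, had 886 and 1266 against 13.9 and 22.9 CPM (5.87 ± 0.61, adjusted p 6.38e-05). Myl9, a regulatory myosin light chain, had 109.5 and 172 against 4.39 and 2.73 CPM (5.31 ± 0.51, adjusted p 1.92e-05). For Myh11, Acta2 and Myl9 every basal value was many times the luminal one, in both pools. Cald1, caldesmon, which binds actin and myosin, rose by 3.49 ± 0.40 (adjusted p 2.64e-05). Oxtr, the oxytocin receptor, had 368 and 307 CPM in basal and 21.4 and 22.2 in luminal libraries, and its 3.95 ± 1.19 did not pass (adjusted p 0.0755; DESeq2 0.00209). Summed over the list, basal libraries held 7467 and 7951 CPM, luminal libraries 910.1 and 689.9, and 12-month stromal libraries 1737 and 3555. Calls numbered 15, 15, 14 and 15 with 1 library left out, and 10 in the fit of all 26 libraries.

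Serum response factor, with its myocardin-family partners, is known to drive smooth-muscle genes through the CArG box. Within the 250 bases upstream of RefSeq starts, 19 of the 23 contractile genes matched with 20 promoters, and 4 held a CArG box on either strand: those of Cnn2, Myl9, Srf and Vcl. Among all 32851 promoters 1.47% held one, and none of the 19 luminal keratin and junction promoters did. The CArG box and CAGGTG cannot overlap. Vcl, vinculin, rose by 0.79 ± 0.23 (adjusted p 0.0293), a narrow call that did not hold with each of the 4 libraries left out in turn. Its promoter at chr14:20929148-20929397 (plus strand) is shown with the CArG box in capitals, 227 bases upstream of the start.
Vcl: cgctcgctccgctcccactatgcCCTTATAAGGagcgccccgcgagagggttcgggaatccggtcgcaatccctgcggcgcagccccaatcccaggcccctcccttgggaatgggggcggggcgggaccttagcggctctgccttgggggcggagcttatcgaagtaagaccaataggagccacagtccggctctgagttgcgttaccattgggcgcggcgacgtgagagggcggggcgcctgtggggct
Srf itself had 50.1 and 59.8 CPM in basal and 52.6 and 37.4 in luminal libraries and was not called (0.29 ± 0.25, adjusted p 0.519). Myocd, Mkl1 and Mkl2, its partners, were not called either (adjusted p 0.302, 0.339 and 0.655).

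Several integrin subunits rose in basal cells while Itgb6 fell. In the list of integrins and hemidesmosome parts, 6 of 16 were called higher (11.6% of all genes) and 1 lower (3.95%), with a median of 1.22. Itga1, the α1 subunit of a collagen receptor, had 39.0 and 28.5 CPM in basal and 0.572 and 0.727 in luminal libraries (5.64 ± 0.42, adjusted p 6.75e-07). Itga9 had 57.0 and 41.3 against 2.10 and 0.545 CPM (5.20 ± 0.47, adjusted p 2.82e-06), and Itga5, of the fibronectin receptor, rose by 2.19 ± 0.26 (adjusted p 3.16e-05). Itgb6, an epithelial integrin subunit that activates latent TGF-β, was the member that fell, from 46.9 and 52.5 in luminal to 10.5 and 14.5 CPM in basal libraries (-1.97 ± 0.37, adjusted p 0.0017). Col17a1, a hemidesmosome collagen, had 191 and 287 against 8.58 and 8.54 CPM and 4.80 ± 1.30, short of the threshold (adjusted p 0.0549, and 0.000527 by DESeq2). Rises numbered 5, 6, 4 and 3 without basal A1, luminal A1, basal A2 and luminal A2.

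Genes of the basement membrane rose nearly as a whole: 16 of 19 were called higher (11.6% of all genes), none lower, with a median of 2.10. Col4a1 and Col4a2, the main collagen IV chains, had 127 and 211 and 143 and 202 CPM in basal libraries against 16.6 and 11.8 and 13.0 and 6.72 in luminal ones. They rose by 3.58 ± 0.31 and 4.13 ± 0.32 (adjusted p 1.93e-06 and 7.7e-07). Hspg2, perlecan, rose by 3.48 ± 0.28 (adjusted p 7.7e-07) and Sparc, a collagen-binding glycoprotein, by 4.67 ± 0.39 (adjusted p 1.39e-06). For 14 of these 19 genes both stromal libraries of 12 months lay above both basal ones, against 28.0% of all genes tested, so for these the basal level was above the luminal but below the stromal one. With basal A1, luminal A1, basal A2 and luminal A2 left out in turn, 12, 12, 14 and 11 members were called, and 6 in the fit of all 26 libraries.

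Collagen-binding proteoglycans and interstitial matrix showed the same order. Of 14 small leucine-rich proteoglycans tested, 8 rose (11.6% of all genes) and none fell, with a median of 2.58, or 2.31 with genes at 0 counts set to their bound. Bgn, biglycan, had 563 and 435 CPM in basal and 18.5 and 16.2 in luminal libraries (4.85 ± 0.41, adjusted p 1.82e-06), and Prelp 730.1 and 454 against 174 and 154 (1.85 ± 0.29, adjusted p 0.00041). Dcn, decorin, differed from them, at 382 and 229.7 CPM in basal and 244 and 333 in luminal libraries, with overlapping values. Fmod was the member of largest rise, and its stromal level of 12.6 and 18.2 CPM was below its basal level. Of 21 interstitial matrix genes, 18 rose and none fell, with a median of 2.43, though 1 fell without luminal A2. Postn, periostin, had 1001 and 956 against 34.7 and 24.2 CPM (5.05 ± 0.36, adjusted p 4.51e-07), and Col5a1, a collagen V chain, 44.4 and 40.9 against 3.05 and 0.727 (4.49 ± 0.40, adjusted p 2.38e-06). Both stromal libraries exceeded both basal ones for 11 of the 14 proteoglycans and 17 of the 21 matrix genes, against 28.0% of all genes tested. In the fit of all 26 libraries 3 proteoglycans and 4 matrix genes were called.

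**Figure D3:**
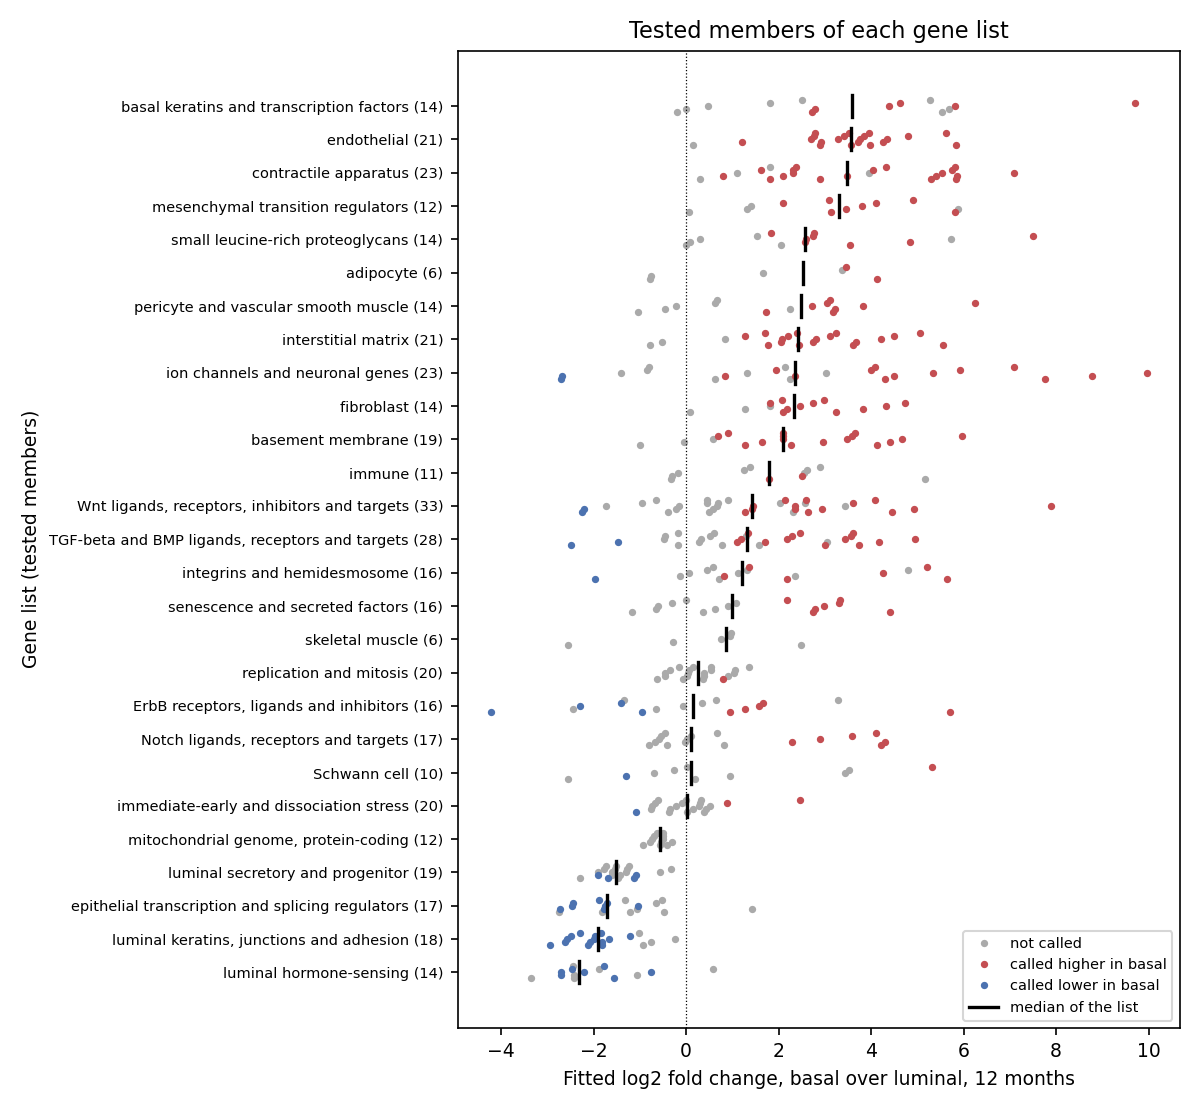
Fitted log2 fold change, basal over luminal, of every tested member of the 27 gene lists, with the number tested in brackets, red for genes called higher, blue for genes called lower, gray for the rest and a bar at the median. Basal, endothelial and contractile lists lie farthest to the right, and the 4 luminal and epithelial lists to the left. Values of genes with no count in a group depend on the prior count of the fit.

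Wnt pathway genes, which in the mammary gland mark and sustain basal stem and progenitor cells, rose more often than they fell: 14 of 33 tested were called higher (11.6% of all genes) and 2 lower (3.95%), with a median of 1.42. Receptors came first. Fzd1 had 50.7 and 64.5 CPM in basal and 9.15 and 13.3 in luminal libraries (2.36 ± 0.27, adjusted p 1.91e-05), Fzd7 348 and 288 and 61.8 and 62.3 (2.36 ± 0.30, adjusted p 6.32e-05). Lgr5, a receptor for R-spondins, had 143 and 114 against 2.48 and 5.82 CPM (4.94 ± 0.60, adjusted p 0.000252). All 3 receptors were higher in basal cells in both pools. Feedback targets and inhibitors rose too: Axin2 by 2.60 ± 0.61 (adjusted p 0.0087, and 0.0783 without the luminal A1 library), Nkd1 by 4.08 ± 0.56 (adjusted p 0.000121) and the secreted protein gene Dkk3 by 4.46 ± 0.51 (adjusted p 0.000103). The 2 members that fell were ligands, Wnt4, which acts downstream of progesterone (12.9 and 16.4 CPM in basal, 66.7 and 70.2 in luminal libraries, -2.21 ± 0.56, adjusted p 0.0205, and 0.157 without the basal A1 library), and Wnt7b (-2.26 ± 0.47, adjusted p 0.00362, and 0.0606 without the basal A2 library). Lgr5, Axin2, Wnt4 and Wnt7b were picked out with their values known.

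Most of the rises in the Notch list were ligands, which signal to the receptor of a touching cell. Of 17 tested Notch genes, 6 were called higher (11.6% of all genes) and none lower, with a median of 0.11. Jag1 had 110.1 and 122 CPM in basal and 26.5 and 20.9 in luminal libraries (2.29 ± 0.22, adjusted p 4.2e-06). Dll1 had 95.1 and 79 against 6.29 and 3.09 CPM (4.21 ± 0.72, adjusted p 0.00344, and 0.055 without the luminal A2 library). Dll4 and Notch4, which endothelium is known to express, rose by 4.10 ± 0.83 and 2.90 ± 0.70 (adjusted p 0.00269 and 0.00941, the latter 0.0761 without the luminal A2 library). The other rises were Jag2, a ligand, and Mfng, which modifies Notch, while no target gene was called. Notch1, Notch2 and Notch3 had fitted values between -0.53 and -0.03. Rises numbered 4, 4, 4 and 2 without basal A1, luminal A1, basal A2 and luminal A2.

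In the TGF-β and BMP list 14 of 28 tested genes rose (11.6% of all genes) and 2 fell (3.95%), with a median of 1.32. Fst, follistatin, which traps activins, had 75.3 and 76.0 CPM in basal and 2.10 and 2.73 in luminal libraries (4.96 ± 0.39, adjusted p 7.7e-07). Tgfbr3, the co-receptor betaglycan, had 611 and 488 against 39.3 and 21.8 CPM (4.17 ± 0.34, adjusted p 1.2e-06). Ltbp4, a latent TGF-β binding protein, rose by 3.56 ± 0.34 (adjusted p 4.5e-06) and Fstl1 by 3.44 ± 0.35 (adjusted p 5.9e-06). The 2 falls were Inhbb, the activin βB subunit, at 10.8 and 11.8 against 31.1 and 32.0 CPM (-1.47 ± 0.34, adjusted p 0.00735, and 0.0537 without the basal A1 library), and the BMP receptor gene Bmpr1b (-2.49 ± 0.62, adjusted p 0.0126, and 0.0863 without the basal A2 library). The inhibitor Fst and the subunit gene Inhbb thus had opposite directions. Rises numbered 11, 13, 11 and 9 with 1 library left out, the lowest without luminal A2.

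Ion channel and neuronal genes were higher in basal cells more often than lower, with 13 of 23 called higher (11.6% of all genes), 2 lower (3.95%) and a median of 2.35. Cacna1c, the pore of the L-type calcium channel of smooth muscle, had 48.6 and 26.8 CPM in basal and 1.72 and 2.0 in luminal libraries (4.31 ± 0.38, adjusted p 2.06e-06). Cacna1g, a T-type calcium channel pore, had 30.9 and 16.4 against 0.381 and 0.727 CPM (5.33 ± 0.53, adjusted p 5.79e-06). Both channels were near 0 in luminal cells. The 2 falls, named after their values were seen, were Piezo2, a mechanically gated channel, at 20.4 and 43.2 CPM in basal and 116 and 305 in luminal libraries (-2.70 ± 0.63, adjusted p 0.0182, and 0.138 without the basal A1 library), and Trpc6 (-2.68 ± 0.62, adjusted p 0.00869, and 0.0628 without the luminal A2 library).

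Regulators of the mesenchymal state rose in 8 of 12 tested genes (11.6% of all genes) and none fell, with a median of 3.30, or 3.11 with genes at 0 counts at their bound. Prrx1, a paired homeobox factor of mesenchyme, had 54.3 and 39.6 CPM in basal and 3.05 and 2.36 in luminal libraries (4.10 ± 0.30, adjusted p 4.6e-07), with 433 and 359.6 in 12-month stroma. Vim, vimentin, had 382 and 386 against 37.8 and 17.3 CPM (3.80 ± 0.34, adjusted p 2.36e-06), and Zeb2 65.7 and 50.4 against 5.53 and 7.63 (3.13 ± 0.32, adjusted p 7.35e-06). Snai1, Twist1, Twist2 and Tcf3 were not called. Both stromal libraries were above both basal ones for 8 of the 12 genes, against 28.0% of all genes tested. The stromal level of Snai2, 17.5 and 22.4 CPM, is given beside it for comparison.

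Markers of endothelium, fibroblasts and pericytes were often higher in the basal fraction, while those of skeletal muscle, Schwann and immune cells were seldom called. Of 21 endothelial genes, 20 were called higher in basal libraries (11.6% of all genes) and none lower, with a median of 3.56. Pecam1, the CD31 adhesion protein, had 139 and 158 CPM in basal and 17.2 and 13.4 in luminal libraries (3.28 ± 0.29, adjusted p 2.07e-06). Kdr, the main VEGF receptor, had 37.5 and 46.6 against 1.72 and 1.27 CPM (4.80 ± 0.57, adjusted p 3.35e-05), Eng 45.3 and 56.9 against 8.01 and 7.09 (2.76 ± 0.31, adjusted p 1.85e-05) and Emcn 48.3 and 62.7 against 5.53 and 1.64 (3.96 ± 0.47, adjusted p 2.76e-05). Their sum was 1062 and 1341 CPM in basal, 158.3 and 115.2 in luminal and 213.2 and 266.6 in stromal libraries of 12 months, so the basal fraction held the highest level of the 3. Both basal libraries lay above both stromal ones for 19 of the 21 genes, against 29.2% of all genes tested. At 3 months the basal sum was 610.4 and 320.4 CPM. Calls numbered 19, 16, 14 and 13 without basal A1, luminal A1, basal A2 and luminal A2.

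Fibroblast genes rose in 11 of 14 tested (11.6% of all genes), with a median of 2.33, but their sum in basal libraries, 1210 and 759.2 CPM, was far below the stromal 20850 and 15870 and above the luminal 370.5 and 395.9. Cxcl12, a chemokine, had 233 and 171 CPM in basal and 9.92 and 5.27 in luminal libraries (4.73 ± 0.38, adjusted p 1.69e-06), and Serpinf1 55.5 and 47.7 against 9.72 and 3.27 (2.99 ± 0.38, adjusted p 6.7e-05). Pericyte and vascular smooth-muscle genes rose in 8 of 14, with a median of 2.48 and sums of 869.6 and 709.3 CPM in basal, 246.2 and 165.9 in luminal and 1040 and 1178 in stromal libraries. Among them, Abcc9, a potassium channel subunit, had 42.9 and 54.7 against 3.62 and 3.27 CPM (3.82 ± 0.44, adjusted p 4.11e-05) and Pdgfrb 25.8 and 19.1 against 5.72 and 1.09 (2.71 ± 0.47, adjusted p 0.00123). For the fibroblast and pericyte sums stroma was thus the highest fraction, unlike for the endothelial sum.

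Immune genes were low. Of 20 listed, 11 could be tested and 2 rose, a share near the 11.6% of all genes. They were Cd74 (2.51 ± 0.53, adjusted p 0.00508, and 0.0558 without the luminal A1 library) and H2-Ab1 (1.79 ± 0.55, adjusted p 0.0385, and 0.218 without the luminal A2 library), both of antigen presentation, with a median of 1.79 over the list, or 1.38 at the bound. Without luminal A1, and in the fit of all 26 libraries, 0 were called higher, and 1 without each of the others. The summed level was 69.0 and 71.7 CPM in basal and 25.4 and 27.4 in luminal libraries. Of 12 adipocyte genes 6 were tested, and 2 rose. With the pool as a block 1 was called lower. The rises were Fabp4, a fatty-acid binding protein that endothelium also carries, at 336 and 488 against 29.2 and 17.6 CPM (4.14 ± 0.38, adjusted p 5.15e-06), and Pparg (3.45 ± 0.49, adjusted p 0.000148). The defining adipocyte genes Adipoq, Plin1, Lep and Cidec had too few counts to be tested. None of 6 tested skeletal muscle genes was called by edgeR or DESeq2, and 0 had an unadjusted p under 0.05. Among 10 Schwann cell genes Ngfr, a neurotrophin receptor that basal epithelium also carries, rose (5.32 ± 0.92, adjusted p 0.00148), Mbp fell (-1.29 ± 0.39, adjusted p 0.0344, and 0.315 without the basal A2 library), and Sox10 was level at 43.8 and 38.0 and 46.9 and 51.4 CPM. The part that cells of other types in the basal gate had in the number of rises and in the matrix, vascular and Notch results above was not tested.

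**Figure D4:**
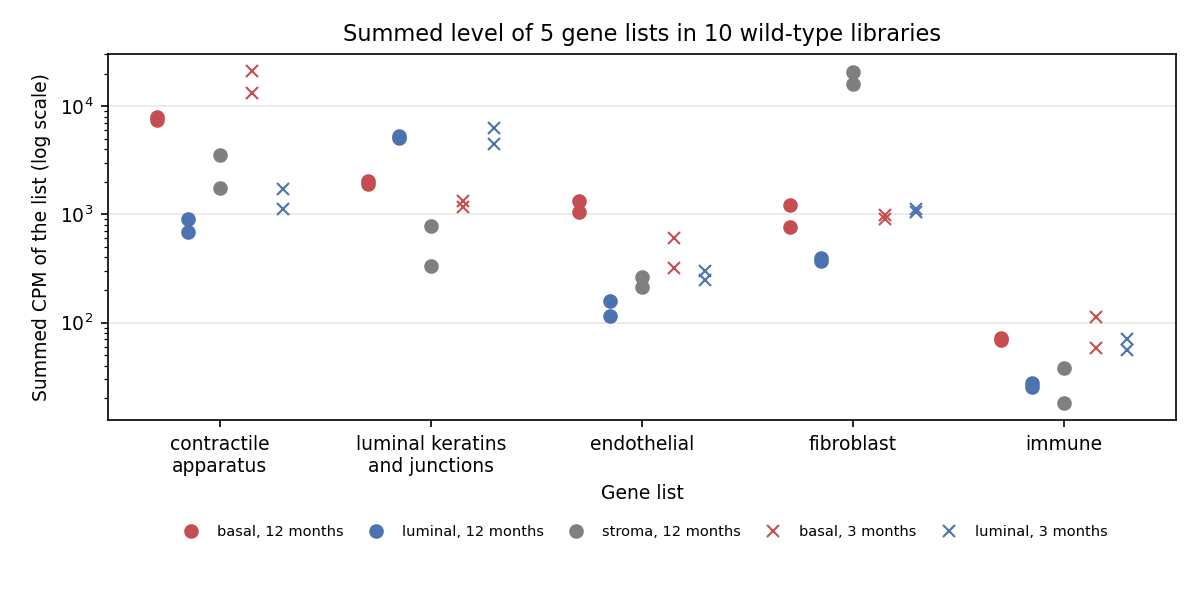
Summed CPM of 5 gene lists on a log axis in wild-type libraries, 2 per group: basal (red), luminal (blue) and stromal (gray) as dots at 12 months, basal and luminal as crosses at 3 months. Endothelial genes reach 1062 and 1341 CPM in 12-month basal libraries, above every other group plotted, while fibroblast genes are highest in stroma.

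Dissociation-stress and proliferation genes were near level between fractions. Of 20 immediate-early genes, 2 rose and 1 fell (11.6% and 3.95% of all genes), with a median of 0.01, and the exceptions were Egr3 (2.46 ± 0.32, adjusted p 6.32e-05), Fosl2 (0.89 ± 0.26, adjusted p 0.0282, and 0.313 without the luminal A2 library) and Klf6 (-1.07 ± 0.30, adjusted p 0.0212, and 0.192 without the basal A2 library). Of 20 replication and mitosis genes only Pcna was called (0.79 ± 0.25, adjusted p 0.0407, and 0.255 without the luminal A2 library), with a median of 0.26. Cycling genes separated the pools: Mki67, a proliferation antigen, had 18.3 and 200.2 CPM in basal and 11.4 and 199 in luminal libraries, and Top2a, the topoisomerase of dividing cells, 10.8 and 93.1 and 5.15 and 67.8. Pool A2 was the higher pool for both genes in both fractions, the reverse of the casein order, where pool A1 was higher. Summed, the list stood at 310.6 and 685.5 CPM in basal and 198.5 and 562.9 in luminal libraries. Whether pool differences of this kind have a source in the mice or in handling was not tested.

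Secreted factors linked to senescence rose in 7 of 16 tested genes (11.6% of all genes) and fell in none, with a median of 0.99. Both stromal libraries exceeded both basal ones for 13 of the 16, against 28.0% of all genes. Igfbp4 had 68.1 and 59.8 CPM in basal and 10.7 and 8.36 in luminal libraries (2.74 ± 0.26, adjusted p 3.95e-06), Igfbp3 84.3 and 79.7 against 4.77 and 2.91 (4.41 ± 0.54, adjusted p 0.000198) and Igfbp7 309 and 384 against 42.1 and 27.4 (3.32 ± 0.45, adjusted p 0.000246). These encode binding proteins of insulin-like growth factors. Ccl2, a monocyte chemokine, rose by 3.32 ± 0.38 (adjusted p 2.02e-05). The cell-cycle inhibitor gene Cdkn1a was not called, at 444 and 427 CPM in basal and 398 and 273 in luminal libraries (adjusted p 0.416). The count of 7 rises was the same with each of the 4 libraries left out, while 2 members fell without luminal A2. Among 12 tested protein-coding genes of the mitochondrial genome none was called in either direction by edgeR, 1 had an unadjusted p under 0.05, all 12 values were negative and the median was -0.56. Of these, mt-Co1 had 4717 and 6822 CPM in basal and 7364 and 9462 in luminal libraries (-0.54 ± 0.33, adjusted p 0.318). DESeq2 called none of the 12 either. Other edgeR fits called some of them lower: 2 with no low-count filter, 1 with only the 4 libraries and 8 with the 4 libraries and the pool as a block. Leaving mitochondrial genes out before scaling gave 2333 calls over all genes.

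Most genes called at 12 months were also called in the same comparison at 3 months. At 3 months 1945 genes rose (13.0%) and 1459 fell (9.73%), in other libraries but with the same estimate of spread. Called higher at both ages were 1226 genes, 70.6% of the 12-month and 63.0% of the 3-month list. Called lower at both were 487 genes, 82.3% of the 12-month and 33.4% of the 3-month list. No gene was called lower at 12 and higher at 3 months, and 3 were called higher at 12 and lower at 3 months: Galnt15, Iigp1 and Vwf, chosen after their values were seen. Their 12-month calls were narrow: adjusted p was 0.04, 0.0393 and 0.0425, and reached 0.187 without the luminal A2 library, 0.235 without the luminal A1 library and 0.311 without the basal A2 library. The calls of Galnt15 and Iigp1 were lost with any of the 4 libraries left out and that of Vwf with 3 of them. The difference between ages was not called for Vwf (adjusted p 0.0729). Luminal keratins and junctions had a median of -1.91 at 12 and -3.49 at 3 months, and hormone-sensing genes -2.31 and -3.53. Contractile genes had 3.49 and 3.75, endothelial genes 3.56 and 1.17, and fibroblast genes 2.33 and 0.41. Luminal libraries also differed between the ages: their summed level at 3 months was 247.3 and 302.3 CPM for endothelial and 1060 and 1120 CPM for fibroblast genes, above the 12-month luminal sums. The part of these markers in the differences between ages was not tested. The libraries of the 2 ages were of different mice, and age cannot be told apart from whatever else separated those pools.

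The difference between the ages was itself tested, as the 12-month minus the 3-month log2 fold change. It was called for 59 genes (0.394%), 56 with a higher value at 12 months (0.374%) and 3 with a lower one (0.0200%). The count was 129 with the pool as a block, 227 by DESeq2, 13 to 124 with 1 of the 8 libraries left out (the lowest without 12-month luminal A2, the highest without luminal A1) and 0 when all 26 libraries were fitted, where 296 genes had an unadjusted p under 0.05. Ly6c1, a surface protein that mouse endothelium carries, had 47.7 and 44.1 CPM in basal and 4.19 and 1.82 in luminal libraries at 12 months, against 20.1 and 13.7 and 15.5 and 15.3 at 3 months (difference 3.82 ± 0.46, adjusted p 0.00611). S1pr1, a sphingosine-1-phosphate receptor of endothelium and lymphocytes, had 36.3 and 57.2 and 1.53 and 1.82 at 12 months, against 15.6 and 14.4 and 10.8 and 13.4 at 3 months (4.49 ± 0.63, adjusted p 0.0113). Basal values were higher and luminal values lower at 12 than at 3 months for both genes. Cd34 (2.70 ± 0.36, adjusted p 0.0113), Calcrl (2.90 ± 0.40, adjusted p 0.0113) and Prrx1 (2.55 ± 0.38, adjusted p 0.0137, and 0.0714 without the 12-month luminal A2 library) had higher differences as well. Of the endothelial list, 3 of 21 were called higher at 12 months, with a median difference of 2.44.

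Galnt15, a mucin-type glycosyltransferase, changed sides: 62.4 and 63.6 CPM in basal and 35.7 and 34.7 in luminal libraries at 12 months against 16.4 and 14.9 and 40.6 and 62.5 at 3 months, a difference of 2.57 ± 0.38 (adjusted p 0.0114). Lower at 12 months were Ctgf, Cnksr3 and Tet1. Ctgf, a matricellular protein and target of YAP signalling, had 48.8 and 47.3 CPM in luminal libraries at 12 months and 4.67 and 5.95 at 3 months, with basal values of 159.6 and 154 and 185 and 86.4 (-2.96 ± 0.43, adjusted p 0.0114). Luminal cells of 12 months were thus nearer to basal cells for Ctgf than those of 3 months. Tet1, a DNA demethylase, had a difference of -2.0 ± 0.40 (adjusted p 0.0428) and Cnksr3 one of -2.46 ± 0.44 (adjusted p 0.023). Tet1 and Cnksr3 kept their calls in only 1 and 2 of the 8 fits with a library left out. Matn4, Rbm38 and Pdk4, next in order, did not pass (adjusted p 0.072, 0.0721 and 0.0778).

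**Figure D5:**
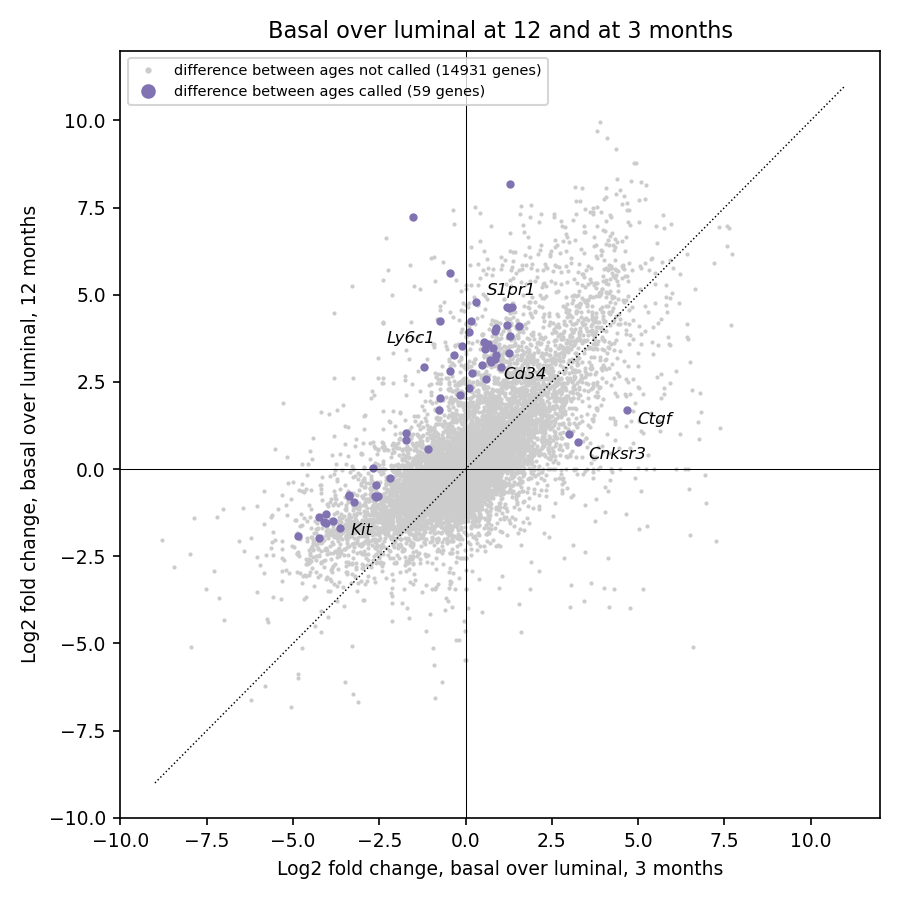
Log2 fold change, basal over luminal, at 3 months (x axis) and 12 months (y axis) for 14990 genes, with the 59 genes whose difference between ages was called in purple and the line of equality dotted. Most purple genes lie above the line, among them S1pr1, Ly6c1 and Cd34, and Ctgf and Cnksr3 lie below it.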

How the data were processed

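Gene counts were deposited by the authors as 1 table of 45706 genes and 26 libraries, raw and not normalized. The submitters' processing notes list TopHat2 2.0.13, HTSeq and build GRCm38. How HTSeq was set, its version and any use of strand are not given in those sources, so genes and antisense partners may share reads. Per the labels' protocols, cDNA was amplified from 5 ng of total RNA, so counts are not independent molecules. The 12 wild-type libraries (6 groups of 2) were fitted with edgeR 4.0.16 in R 4.3.3: filterByExpr (minimum count 10, total 15), TMM scaling, robust quasi-likelihood test, Benjamini-Hochberg adjustment over 14990 genes. CPM values are counts scaled to 1000000 per TMM-scaled library. All null libraries were left out of the fit because the comparison is within wild type. In addition, 2 of them go against their labels in earlier results of these data, not shown here, and would enter the shared spread. Leaving out only those 2 gave 1004 calls between basal and luminal cells and 0 between ages. Members, gene lists and rules were chosen with earlier results of these data known.

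Same-prefixed libraries come from the same pool of mice. Their deviations from the group means correlated at 0.313 between basal and luminal libraries of 12 months and at 0.129 at 3 months. Named genes were the 12 of largest change in each direction among called genes with 10 CPM or more and no overlap, up to 4 members per list by smallest p, 6 per direction for the test between ages, and 10 fixed markers. Genes outside the rule are Krt17, Col17a1, Oxtr, Acta2, Cldn4, Epcam, Itga6, Vwf, Iigp1 and those so described in the text, as well as other list members given by name, CPM or adjusted p, and were chosen after their values were seen. Positions are from GENCODE vM21, which matched 45143 of the genes. On simulated counts (14575 genes, 50 changed per size) the fit recovered 18 changes of 2-fold, 47 of 4-fold, 48 of 8-fold and 49 of 16-fold, and called 11 of 14376 unchanged genes. Changes were given only to genes of 10 CPM or more. Counts were drawn with the spread of the fit itself and no pool effect, so the recovery in real libraries may be lower. DESeq2 1.42.0 was the other tool. Figures were drawn with matplotlib 3.10.9. Nothing says that the libraries within a group are more than separate pools. P-values of the main fit set each difference against the spread within groups, estimated over the 12 wild-type libraries.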

Additional observations from a re-analysis of the deposited data

Results flagged for a closer look

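The difference between basal and luminal cells was not the same at 12 and at 3 months for 59 genes by edgeR's interaction test with Benjamini-Hochberg adjustment, and the genes named in the report that were among them are listed here with the 12-month minus 3-month log2 difference. Positive differences were found for Ly6c1 3.82, S1pr1 4.49, Cd34 2.70, Calcrl 2.90, Pecam1 2.39, Eng 2.58, Emcn 3.10 and Fabp4 2.95. These are called genes and no list of their own, and of the 21 endothelial genes 3 were called. Positive too were Prrx1 (2.55), Zeb2 (2.42), Serpinf1 (2.52), Galnt15 (2.57) and Iigp1 (2.78). Kit (1.95) and Inhbb (2.38) were higher in luminal cells at both ages, with a smaller gap at 12 months (log2 fold changes -3.64 and -3.85 at 3 months). Negative differences were found for Ctgf (-2.96), Cnksr3 (-2.46) and Tet1 (-2.0).

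For Kit, luminal libraries held 198 and 178 CPM at 12 months and 239.6 and 150.2 at 3 months, and basal libraries 60.0 and 56.3 and 14.5 and 16.5. For Pecam1, basal libraries held 139 and 158 and 45.6 and 31.0 CPM and luminal libraries 17.2 and 13.4 and 19.8 and 21.2. The basal value of Pecam1 was higher and the luminal value lower in the older mice. Summed endothelial genes moved the same way in basal libraries, from 610.4 and 320.4 CPM at 3 months to 1062 and 1341 at 12 months, and their part in the other differences was not tested. Groups of 2 libraries are too small to look for single libraries that stand apart.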

How the results depend on the processing

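The count of 2329 genes called between basal and luminal cells stayed within 1.5-fold with RLE scaling, no low-count filter, DESeq2, no robust option, 4 or 8 libraries in the fit and mitochondrial genes left out. It was 460 in the fit of all 26 libraries, 1004 in 24 (without the 2 libraries of pool A5 that go against their labels), and 1517 to 1685 with 1 of the 4 libraries left out, where a lone library is assumed to vary like the other groups. Paired by pool as a replicate block, the fit called 2618 genes, and 3369 with only the 4 libraries. Of 151 named genes, 135 were called, 133 of them also with the block, where Trp63 and Epcam lost the call, and 91 with each of the 4 libraries left out. Csn2 ranged from -7.69 without basal A1 to 4.39, a reversal, without luminal A1, as each leaves pool A1 in a single fraction.

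The 59 calls between ages were 409 with no low-count filter, 227 by DESeq2, 129 with the replicate block, 37 with 8 libraries, 0 in the fits of 26 and of 24 libraries (296 and 601 genes at an unadjusted p under 0.05) and 13 to 124 with 1 of the 8 libraries left out. In the fit of all 26 libraries, list counts of genes called higher were 10 endothelial, 2 fibroblast, 1 pericyte, 3 mesenchymal, 3 basal keratin, 3 integrin, 6 Wnt, 1 Notch, 6 TGF-β, 6 ion channel and 2 senescence genes. Fits with more libraries share a spread with the null groups, and the cause of the lower counts was not tested. Depth limits the low end: 3 counts over the luminal group are the floor behind every fold given against 0. In simulated counts 18 of 50 changes of 2-fold were recovered, but only genes of 10 CPM or more were changed. The simulation thus does not measure the limit at low counts.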
